A study of Mus musculus with 18 samples.

Results

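The mouse mitochondrial genome carries 37 genes whose symbols begin with mt-, and all 37 were found by that prefix among the 54446 gene identifiers counted in each library. They comprise 13 mRNAs, 2 rRNAs and 22 tRNAs. The plus strand of chromosome M holds 12 of the mRNAs, both rRNAs and 14 tRNAs. The minus strand holds the mRNA mt-Nd6 and 8 tRNAs. No other annotated gene lies on that chromosome.

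The samples were embryoid bodies, which are clusters of differentiating stem cells grown in suspension, and came from C57BL/6 stem cells after 7 days of differentiation. There were 6 groups of 3 libraries. In the Mettl3 line these were Mettl3 CKO with 5 µM GSK-J4, Mettl3 CKO with DMSO, and Mettl3 control. In the Mettl14 line they were Mettl14 CKO with 5 µM GSK343, Mettl14 CKO with DMSO, and Mettl14 control. CKO stands for a conditional knockout, and the labels do not state what drives the deletion, how many clones were used or whether the controls received DMSO. No control received an inhibitor. GSK-J4 inhibits the histone H3K27 demethylases KDM6A and KDM6B, and GSK343 inhibits the H3K27 methyltransferase EZH2. METTL3 and METTL14 are subunits of the enzyme that writes N6-methyladenosine into mRNA. Replicates are not stated to be separate cultures, so p-values measure only the spread between these libraries, which may be technical. In bulk RNA, fewer cells of a type and less RNA per cell cannot be told apart.

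Mitochondrial DNA is transcribed from both strands into long precursors that run through many genes. The tRNAs lie between most of the mRNAs and rRNAs and are cut out, which frees the RNAs on either side, and most of the mRNAs then receive a poly(A) tail inside the organelle. The 13 mRNAs encode subunits of respiratory complexes I, III and IV and of ATP synthase, whose other subunits are encoded in the nucleus. In human cells the ND6 mRNA, the single one of the minus strand, is known to carry little or no tail. These libraries were made from poly(A)-selected RNA, so a value here depends on the amount of an RNA and on its tail, which cannot be told apart. Some of the mRNAs end before their stop codon is complete, and the tail supplies the missing A residues. Reference sequence of the last 18 annotated bases of 5 mRNAs is shown because a tail, where there is one, is joined at the 3′ end. The encoded stop bases are in capitals (GENCODE M21 transcripts, mm10). The annotated end of mt-Nd1, at 3707, lies past the start of mt-Ti, at 3706, so the cut mRNA may end before it. The first 3 are the mRNAs with an incomplete stop codon, and 2 of the 10 with a complete one follow.
mt-Co3, chrM:9373-9390, plus strand: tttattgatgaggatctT
mt-Nd4, chrM:11527-11544, plus strand: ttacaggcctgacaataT
mt-Cytb, chrM:15271-15288, plus strand: tactaaaattatatccaT
mt-Nd1, chrM:3690-3707, plus strand: gtaccaccatacataTAG
mt-Nd6, chrM:13552-13569, minus strand: gagattactcgagatTAA

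Library totals ran from 3395675 to 8289423 counts with GSK-J4, from 17544904 to 32540164 in the Mettl3 CKO and from 21615674 to 29496824 in the Mettl3 control. They ran from 721853 to 20714764 with GSK343, from 1303697 to 8688596 in the Mettl14 CKO and from 8288902 to 10285737 in the Mettl14 control. Group names are those of the labels, since neither targeted gene had counts that set its knockout apart from its control. Mettl3 had 27.5, 7.29 and 19.0 TMM-scaled CPM (CPM, counts scaled to a common library size, here after trimmed-mean scaling) in its CKO and 21.3, 36.3 and 19.9 in its control. Mettl14 had 16.3, 22.9 and 19.3 in its CKO and 16.4, 17.8 and 16.5 in its control. Whole-gene counts include any exon that was not deleted. The 9 mesenchyme markers summed to 10687 to 19451 CPM with GSK-J4, to 27936 to 32825 CPM in the Mettl3 CKO and to 16875 to 25658 CPM in the Mettl3 control, so the GSK-J4 libraries lay below all 3 CKO libraries. In the Mettl14 line the sum was 11951 to 23635 CPM. The 6 markers of pluripotent cells summed to 0 to 64.7 CPM with GSK-J4 and to 0.271 to 32.0 CPM elsewhere, with Pou5f1, Nanog, Zfp42, Dppa5a and Utf1 at a median of 0. The 5 neural markers summed to 66.1 to 80.0 CPM with GSK-J4, to 176 to 195 CPM in the Mettl3 CKO, to 111 to 146 CPM in the Mettl3 control and to 21.2 to 76.8 CPM in the Mettl14 line, with Sox1 and Pax6 at a median of 0. The 6 endoderm markers summed to 10.6 to 20.2 CPM against 0 to 16.5, with Afp, Ttr, Sox17 and Foxa2 at a median of 0. The 6 mesoderm markers summed to 11.8 to 69.5 CPM against 0 to 13.04, with T, Mesp1, Myh6, Nkx2-5 and Actn2 at a median of 0. The 5 blood markers summed to 3.53 to 18.8 CPM against 0 to 2.48, with Hba-a1, Gata1 and Tal1 at a median of 0 and Hbb-bs with no count. The 4 trophoblast markers summed to 0.206 to 2.53 CPM against 0 to 1.44, with Elf5, Krt7 and Tfap2c at a median of 0 and Cdx2 with no count. The highest sum of the pluripotent, endoderm, mesoderm, blood and trophoblast markers was in a GSK-J4 library, while the neural sum was lower with GSK-J4 than in any other library of the Mettl3 line. The part of these markers in the results below was not tested. Mettl14 CKO replicate 3 stood apart in having 7.57% of its counts in nuclear genes that overlap ribosomal RNA sequence.

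In the 15 libraries without GSK-J4, the mitochondrial genes ranged from among those with the most counts in the library to those with none. The 37 genes together took 3.25 ± 0.247% of the counts in the Mettl3 CKO and 3.57 ± 0.152% in the Mettl3 control (SD, n = 3 each). They took 4.32 ± 0.479% with GSK343, 3.99 ± 0.397% in the Mettl14 CKO and 3.32 ± 0.335% in the Mettl14 control. Per kilobase of transcript, the median level over these 15 libraries was highest for the large rRNA mt-Rnr2, at 5358 CPM per kb, and was 3483 CPM per kb for the small rRNA mt-Rnr1. Among mRNAs, mt-Nd1 (complex I) had 4639 CPM per kb, mt-Co1 (the catalytic subunit of complex IV) 4400 and mt-Cytb (cytochrome b of complex III) 4144. The complex I subunits mt-Nd5, mt-Nd2 and mt-Nd4 followed at 2511, 1827 and 1341 CPM per kb. The minus-strand mt-Nd6, also of complex I, had 376 CPM per kb. These levels lie close together for mt-Nd1, mt-Co1 and mt-Cytb, whose group means ± SD overlapped in the Mettl3 control only between mt-Nd1 and mt-Co1, at 4621 ± 270.0 and 4404 ± 214 CPM per kb, with mt-Cytb at 4068 ± 89.3.

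The remaining 6 plus-strand mRNAs were listed far lower. The median was 109 CPM per kb for mt-Co2, 34.2 for mt-Atp6, 16.1 for mt-Atp8, 15.9 for mt-Co3, 12.8 for mt-Nd4l and 2.38 for mt-Nd3. These 6 mRNAs follow each other on chromosome M from mt-Co2 to mt-Nd4l, and a run of 7 annotated pseudogenes on the minus strand of chromosome 1, from 24611535 to 24616197, holds copies of 5 of them and of parts of mt-Co1 and mt-Nd4. Of the 7 copies, 5 were identical to the mitochondrial gene over the aligned bases and the lowest identity was 99.7%. Of all stretches of 50 bases in the gene, an exact match in an annotated nuclear gene existed for 100% in mt-Co2, 99.9% in mt-Co3, 99.5% in mt-Atp6, 98.8% in mt-Nd4l and 98.0% in mt-Nd3. No annotated copy of mt-Atp8 was found, but the 233 bases between the chromosome 1 copies of mt-Co2 and mt-Atp6 stand where chromosome M has 230 bases. The share was 62.2% for mt-Nd4, 51.1% for mt-Co1, 8.19% for mt-Nd2 and 7.61% for mt-Nd5, and 0 for mt-Atp8, mt-Nd1, mt-Nd6, mt-Cytb, both rRNAs and all tRNAs. A read that matches both places cannot be assigned to either, so the levels of the 5 mRNAs copied nearly whole are uncertain, as is the part of mt-Co1 and mt-Nd4 that is copied. Less alike copies were annotated on other chromosomes, among them Gm13340 over 100% of mt-Co1 at 97.6% identity. Gm11408 covered 100% of mt-Nd6 at 93.6%, and Gm11410 99.8% of mt-Cytb at 92.9%. The 7 copies on chromosome 1 held little. Their summed share was 0.000743 ± 0.000485% of counts with GSK-J4, 0.00878 ± 0.00163% in the Mettl3 CKO and 0.0104 ± 0.00215% in the Mettl3 control (SD, n = 3 each). The start of mt-Nd3 and of its copy Gm28438 (mm10) is shown to let the likeness be seen, with the single differing base of these 60 in capitals, T3C, counted from the first base of mt-Nd3.
mt-Nd3, chrM:9459-9518, plus strand: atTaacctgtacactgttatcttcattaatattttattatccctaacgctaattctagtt
Gm28438, chr1:24613060-24613119, minus strand: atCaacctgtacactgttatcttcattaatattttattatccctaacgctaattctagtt

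**Figure D1:**
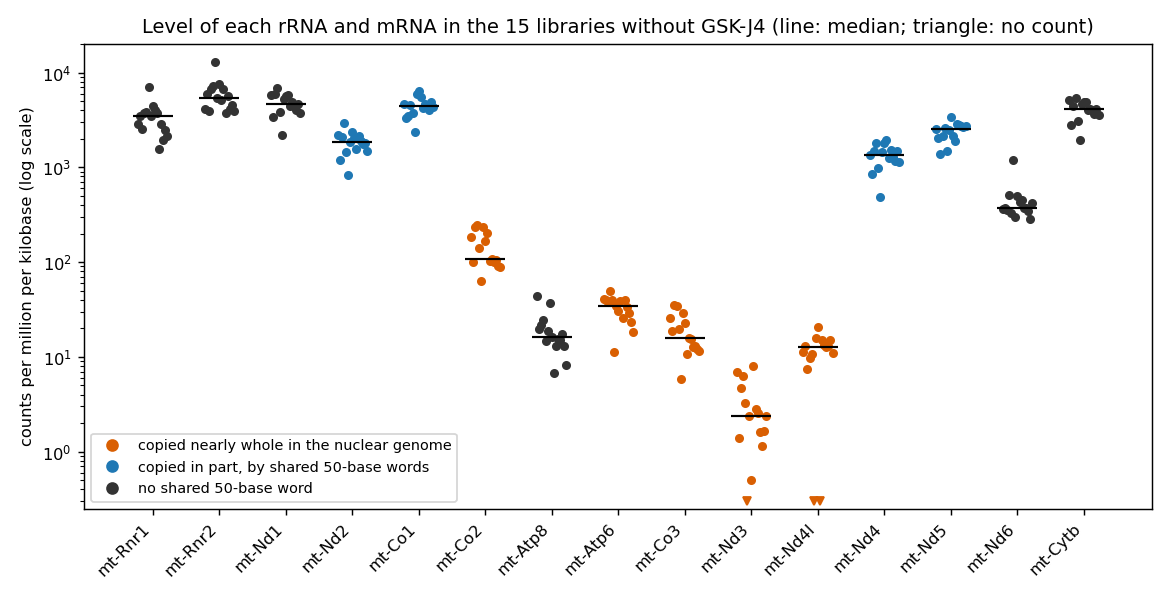
Level of the 13 mRNAs and 2 rRNAs per kilobase of transcript (CPM per kb, log axis) in the 15 libraries without GSK-J4, in the order of the genes along the mitochondrial genome. Points are libraries, lines are medians and triangles are libraries with no count. Colours mark whether nearly all, some or none of a gene's stretches of 50 bases have an exact match in an annotated nuclear gene. The 6 mRNAs from mt-Co2 to mt-Nd4l, of which all but mt-Atp8 have an annotated copy on chromosome 1, have medians of 2.38 to 109 CPM per kb, against 1341 to 4639 CPM per kb for the 6 other, abundant plus-strand mRNAs. The medians of the 5 mRNAs copied nearly whole are uncertain, since a read that matches both places cannot be assigned.

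The tRNAs had few counts in these poly(A)-selected libraries, which does not show that little of their RNA was present. Over the 18 libraries 15 of the 22 tRNAs had at least 1 count, 7 on the plus strand and all 8 on the minus strand. No count was found for mt-Tf, mt-Ti, mt-Tk, mt-Tg, mt-Tr, mt-Th and mt-Ts2, all on the plus strand, and a floor of 3 counts allows up to 0.0922 to 4.16 CPM depending on the library. The largest totals over 18 libraries were 1835 counts for mt-Tp, 1673 for mt-Ty, 1241 for mt-Tw and 1096 for mt-Tq. Counts under 10 in all were found for mt-Tm (5), mt-Tv (2), mt-Td (2) and mt-Tl2 (1). mt-Tt had 799 counts, mt-Te 690, mt-Ta 386, mt-Ts1 256, mt-Tl1 64, mt-Tc 29 and mt-Tn 11. The tRNA counts may also come from uncut precursors, which was not tested.

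The comparison of Mettl3 CKO with GSK-J4 against the Mettl3 CKO had more mitochondrial genes called than any other comparison, and they differed in direction between strands. Of the 12 plus-strand mRNAs, 9 fell, by a median log2 fold change of -4.50 over all 12. The minus-strand mRNA mt-Nd6 rose 2.97-fold. Of the rRNAs, mt-Rnr2 fell 1.67-fold and mt-Rnr1 did not pass the test. Among the tRNAs, mt-Te and mt-Tp, both of the minus strand, rose. In all, 24 of the 37 members passed the low-count filter and 13 of these were called, where 13% of all 16782 genes tested were called. There were 3 called higher, with a background of 3.96%, and 10 called lower, with a background of 9.07%. A call is an adjusted p under 0.05 by edgeR's quasi-likelihood test with Benjamini-Hochberg adjustment over all genes tested. The median log2 fold change of all genes tested was -0.06. It was 0.17 with library totals as the scale and -0.36 with limma voom, while that of the 12 plus-strand mRNAs stayed between -4.89 and -4.28 under every alternative run. With library totals the calls over all genes were 1126 higher and 1240 lower, against 664 higher and 1522 lower as fitted. The number of members called was 8 without any 1 of the 3 Mettl3 CKO libraries, and these 8 were mt-Nd1, mt-Nd2, mt-Nd4, mt-Nd5, mt-Nd6, mt-Co1, mt-Co2 and mt-Cytb each time. Calls over all genes also fell in those fits, to 1032 of 18732, 1113 of 19578 and 1060 of 18540, against 2186 of 16782 as fitted.

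As a share of all counts, the 12 plus-strand mRNAs made up 0.0913, 0.0632 and 0.180% with GSK-J4, 2.27, 2.56 and 2.24% in the Mettl3 CKO and 2.22, 2.62 and 2.46% in the Mettl3 control. Every GSK-J4 library lay below all of the 15 others, whose lowest value was 1.23%. mt-Nd6 made up 0.0756, 0.0484 and 0.0640% with GSK-J4, 0.0178, 0.0146 and 0.0217% in the Mettl3 CKO and 0.0233, 0.0192 and 0.0195% in the Mettl3 control. Here the GSK-J4 libraries lay above the other groups of their line, while Mettl14 CKO replicate 3, at 0.0623%, lay among them. The rRNAs together took 0.781, 0.560 and 0.624% with GSK-J4, 0.831, 0.960 and 0.833% in the Mettl3 CKO and 1.41, 0.745 and 1.17% in the Mettl3 control. The rRNA shares did not overlap between GSK-J4 and the CKO, and overlapped between GSK-J4 and the control. The half-widths of the Wilson 95% intervals of these shares are at most 3.52% of the value for the plus-strand mRNAs and 15.4% for mt-Nd6, and cover counting error only.

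**Figure D2:**
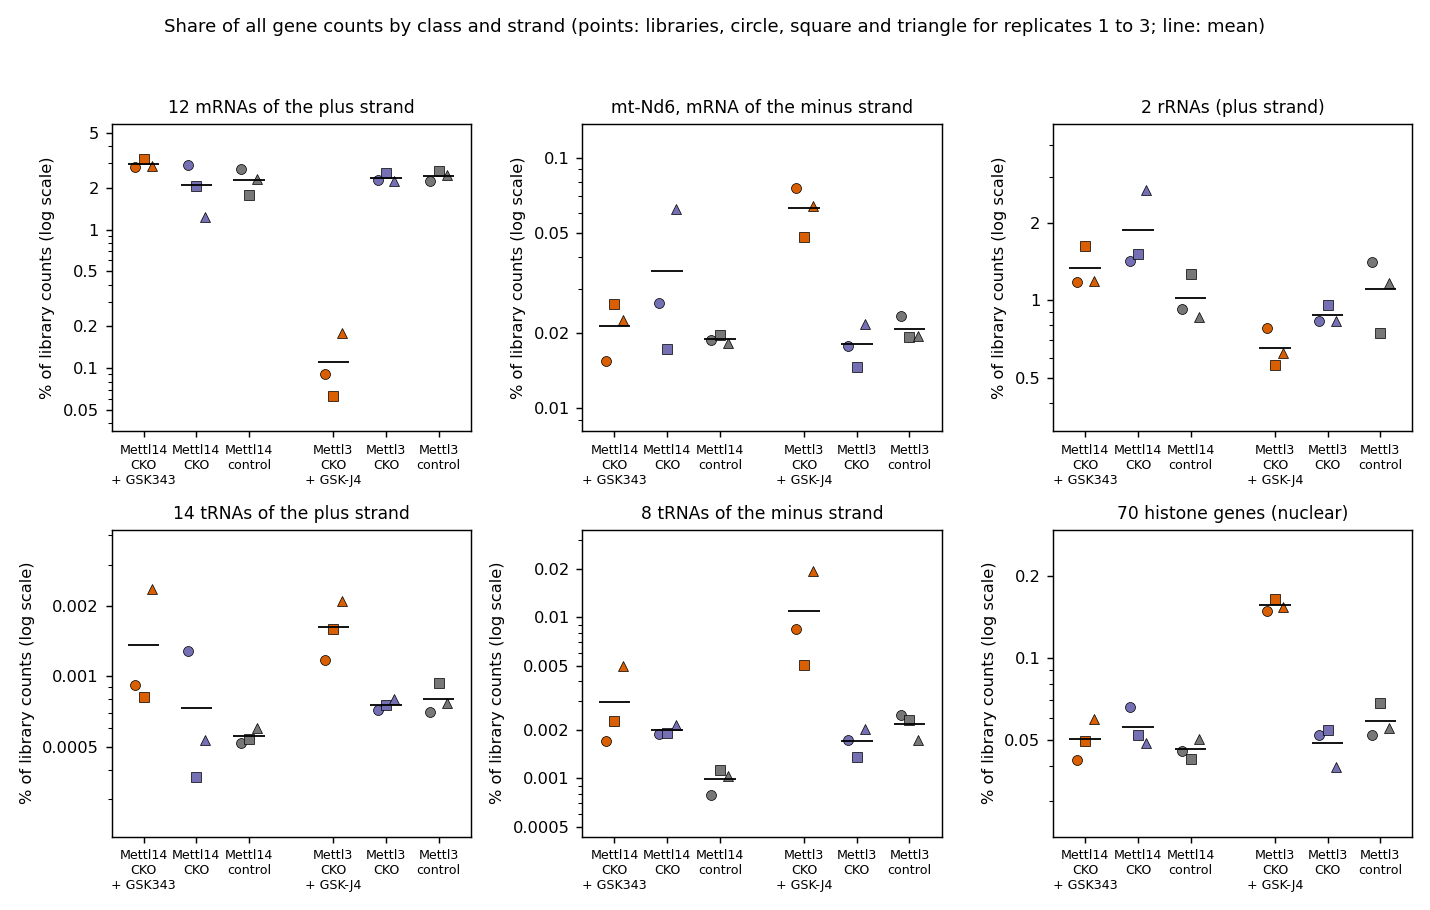
Share of all counts (percent, log axis) taken by the plus-strand mRNAs, mt-Nd6, the rRNAs, the tRNAs of each strand and 70 nuclear histone genes, with a panel each. Points are the 18 libraries, symbols are replicates and lines are group means. The GSK-J4 libraries hold 0.0632 to 0.180% in plus-strand mRNAs, below all 15 others, and 0.0484 to 0.0756% in mt-Nd6, above the 6 other libraries of the Mettl3 line.

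Complex I, which takes electrons from NADH, has 7 mitochondrially encoded subunits. mt-Nd1 had 121, 58.4 and 266 TMM-scaled CPM with GSK-J4, 4075, 4694 and 3728 in the Mettl3 CKO and 4460, 5105 and 4612 in the Mettl3 control. Its 3 GSK-J4 libraries lay far below the others, and the log2 fold change against the CKO was -4.81 ± 0.46 (SE, n = 3 each; edgeR adjusted p = 8.56e-05), a 28.1-fold fall. mt-Nd2 had 86.6, 27.1 and 114 TMM-scaled CPM with GSK-J4, 1953, 2004 and 1615 in the CKO and 1689, 2387 and 2102 in the control. It fell 24.6-fold against the CKO, by a log2 fold change of -4.62 ± 0.44 (SE; edgeR adjusted p = 8.56e-05), again with no overlap. mt-Nd4 had 25.4, 36.2 and 106 TMM-scaled CPM with GSK-J4, 1696, 2166 and 1629 in the CKO and 1807, 2287 and 1891 in the control. Its fall of 32.7-fold was a log2 fold change of -5.03 ± 0.48 (SE; edgeR adjusted p = 8.12e-05). For all 3 genes the GSK-J4 library with the highest level was replicate 3.

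mt-Nd5 had 311, 166 and 587 TMM-scaled CPM with GSK-J4, 5274, 5191 and 5143 in the Mettl3 CKO and 3608, 5594 and 5498 in the Mettl3 control. It fell 14.7-fold, by a log2 fold change of -3.88 ± 0.40 (SE; edgeR adjusted p = 0.000122), the smallest fall of the 6 abundant plus-strand mRNAs. The 2 short complex I mRNAs, mt-Nd4l and mt-Nd3, were at the limit of detection. mt-Nd4l had 0, 0 and 1 counts with GSK-J4, 126, 79 and 94 in the CKO and 96, 117 and 109 in the control. The ratio of its summed counts, each scaled to library size, GSK-J4 to CKO, was 0.0160 with an exact 95% interval of 0.000403 to 0.0898 for counting error, and it was called lower (edgeR adjusted p = 0.0362). That call was lost in 7 of 15 alternatives. mt-Nd3 had 13, 1 and 0 counts with GSK-J4 and 13, 10 and 24 in the CKO, and the groups overlapped (edgeR adjusted p = 0.798).

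Complex III passes electrons from ubiquinol to cytochrome c, and mt-Cytb is the mitochondrially encoded subunit. It had 76.0, 90.2 and 173 TMM-scaled CPM with GSK-J4, 4407, 5012 and 4268 in the Mettl3 CKO and 4861, 5156 and 4897 in the Mettl3 control. No libraries overlapped, and the fall of 40.3-fold was a log2 fold change of -5.33 ± 0.31 (SE; edgeR adjusted p = 3.48e-06). Complex IV reduces oxygen, and mt-Co1 carries its catalytic site. mt-Co1 had 192, 195 and 348 TMM-scaled CPM with GSK-J4, 6578, 7920 and 6969 in the CKO and 6803, 7722 and 7290 in the control. The fall of 29.2-fold was a log2 fold change of -4.87 ± 0.26 (SE; edgeR adjusted p = 2.25e-06), the smallest adjusted p among the members. mt-Co2, which binds cytochrome c, had 6, 43 and 17 counts with GSK-J4, 2338, 1090 and 1777 in the CKO and 1513, 2194 and 1975 in the control. It was called lower by 20.9-fold, with a log2 fold change of -4.39 ± 0.40 (SE; edgeR adjusted p = 5.76e-05). mt-Co3 had 0, 13 and 15 counts with GSK-J4, 331, 167 and 261 in the CKO and 270, 353 and 284 in the control, and although the groups did not overlap it did not pass the test (edgeR adjusted p = 0.102). DESeq2 called it, as did the fits to all 18 libraries and without GSK-J4 replicate 1 or 3.

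ATP synthase has mt-Atp6, part of its proton channel, and mt-Atp8, whose reading frames overlap. mt-Atp6 had 10, 8 and 21 counts with GSK-J4, 641, 282 and 359 in the Mettl3 CKO and 381, 799 and 651 in the Mettl3 control. It fell 6.97-fold, by a log2 fold change of -2.80 ± 0.67 (SE; edgeR adjusted p = 0.0196), a call lost in 6 of 15 alternatives. mt-Atp8 had 2, 0 and 1 counts with GSK-J4, 116, 47 and 49 in the CKO and 58, 94 and 89 in the control. Its ratio of scaled counts, GSK-J4 to CKO, was 0.0677 with an exact 95% interval of 0.0138 to 0.200, and it did not pass the test (edgeR adjusted p = 0.166). The 6 abundant plus-strand mRNAs (mt-Nd1, mt-Nd2, mt-Co1, mt-Nd4, mt-Nd5 and mt-Cytb) were all called, with log2 fold changes of -5.33 to -3.88. Of the 6 with lower counts, from mt-Co2 to mt-Nd4l, 3 were called. Each of these 6 had 43 counts or fewer in every GSK-J4 library. Of the 7 copies on chromosome 1, 5 were called lower, with a background of 9.07%, and none higher, with a background of 3.96%. Log2 fold changes over the 7 were -9.95 to -1.45. The copies are nearly identical to the mitochondrial genes, so these calls are not separate from those of the members. mt-Cytb fell furthest among the 6 abundant mRNAs. It shares no exact stretch of 50 bases with an annotated nuclear gene, but has a copy, Gm11410, over 99.8% of its length at 92.9% identity. The part of nuclear copies in the values of the mRNAs was not tested. Of the mRNAs with an incomplete stop codon, mt-Cytb and mt-Nd4 had falls between those of mt-Nd4l and mt-Nd5, and mt-Co3 was not called.

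mt-Nd6, the complex I subunit encoded on the minus strand at 13552 to 14070, moved the other way. It had 680, 443 and 570 TMM-scaled CPM with GSK-J4, 189, 155 and 227 in the Mettl3 CKO and 245, 208 and 209 in the Mettl3 control. All 3 GSK-J4 libraries lay above the other 6, and the log2 fold change against the CKO was 1.57 ± 0.21 (SE, n = 3 each; edgeR adjusted p = 0.000825). In raw counts it had 2568, 4008 and 3105 with GSK-J4 and 5788, 2567 and 6281 in the deeper CKO libraries. It took 38.3 ± 10.5% of the counts of the 13 mRNAs with GSK-J4, 0.768 ± 0.195% in the CKO and 0.851 ± 0.165% in the control (SD, n = 3 each). Over the 15 libraries without GSK-J4 this share lay between 0.548 and 4.83%. The 3′ end of mt-Nd6 overlaps that of mt-Nd5 on the other strand by 14 bases, shown in capitals (GENCODE M21 transcripts, mm10) because mt-Nd5, which fell, and mt-Nd6, which rose, meet there.
mt-Nd5, chrM:13536-13565, plus strand: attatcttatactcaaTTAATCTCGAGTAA
mt-Nd6, chrM:13552-13581, minus strand: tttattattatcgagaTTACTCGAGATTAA
Whether the counting used strand is not given in the sources used here, so for mt-Nd6 and the minus-strand tRNAs their own RNA and RNA of the other strand cannot be told apart.

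The rRNAs form the core of the mitochondrial ribosome and lie near the start of the plus-strand transcripts. mt-Rnr2 had 4935, 3896 and 3828 TMM-scaled CPM with GSK-J4, 6864, 7640 and 6577 in the Mettl3 CKO and 11008, 6452 and 9573 in the Mettl3 control. It did not overlap with the CKO, and its log2 fold change was -0.74 ± 0.20 (SE; edgeR adjusted p = 0.0348), a call lost in 7 of 15 alternatives, among them library totals as the scale. mt-Rnr1 had 2082, 1234 and 1724 TMM-scaled CPM with GSK-J4, 1957, 2506 and 2141 in the CKO and 3762, 1613 and 2955 in the control. These groups overlapped, with a log2 fold change of -0.39 ± 0.28 (SE; edgeR adjusted p = 0.398). The rRNA count per mRNA count was 4.08 ± 1.33 with GSK-J4, 0.368 ± 0.00461 in the CKO and 0.460 ± 0.172 in the control (SD, n = 3 each). The highest of the 15 libraries without GSK-J4 had 2.08.

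Of the 8 minus-strand tRNAs, 7 passed the low-count filter and all 7 had a positive log2 fold change, with a median of 2.83. A positive sign is not a call, and 2 of the 7 were called. Of the 14 plus-strand tRNAs, 2 passed the filter, mt-Tt and mt-Tw, and neither was called. Their log2 fold changes were also positive, the lower at 0.29 and the higher at 1.64. The 14 plus-strand tRNAs together took 0.00118 to 0.00210% of counts with GSK-J4. They took 0.000716 to 0.000801% in the Mettl3 CKO and 0.000703 to 0.000936% in the Mettl3 control. In the GSK343 libraries the share reached 0.00236%. The summed plus-strand share thus also lay higher with GSK-J4 than in the other groups of its line, though neither tested tRNA was called. mt-Tw overlapped, at 0.483 to 11.8 CPM with GSK-J4 and 3.53 to 6.04 CPM in the CKO. mt-Tl1, which did not pass the filter, had 0 counts with GSK-J4 and 32 in the deeper CKO libraries. The sequences of the 2 called tRNAs and of mt-Tq are given with the anticodon in capitals, since it names the amino acid each carries (glutamate, proline and glutamine; GENCODE M21 transcripts, mm10).
mt-Te, chrM:14071-14139, minus strand: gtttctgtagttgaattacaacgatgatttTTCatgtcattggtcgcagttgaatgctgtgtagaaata
mt-Tp, chrM:15356-15422, minus strand: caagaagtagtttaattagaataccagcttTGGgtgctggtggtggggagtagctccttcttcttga
mt-Tq, chrM:3772-3842, minus strand: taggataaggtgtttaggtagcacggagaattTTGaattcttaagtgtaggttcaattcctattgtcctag

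On the map mt-Te, at 14071 to 14139, adjoins mt-Nd6, at 13552 to 14070. Both are on the minus strand, so mt-Te lies upstream, next to the 5′ end of mt-Nd6. mt-Te had 77, 103 and 141 counts with GSK-J4 and 37, 19 and 69 in the deeper Mettl3 CKO libraries. That was 20.4, 11.4 and 25.9 TMM-scaled CPM with GSK-J4, 1.21, 1.15 and 2.49 in the CKO and 4.47, 1.10 and 2.09 in the Mettl3 control, with no overlap. The log2 fold change was 3.56 ± 0.90 (SE, n = 3 each; edgeR adjusted p = 0.0247), an 11.8-fold rise. mt-Tp had 37.1, 12.9 and 93.4 TMM-scaled CPM with GSK-J4, 4.63, 6.69 and 6.46 in the CKO and 4.23, 2.79 and 3.29 in the control. Its rise of 8.05-fold was a log2 fold change of 3.01 ± 0.70 (SE; edgeR adjusted p = 0.0168), and replicate 3 was the highest library. Both calls were lost in 6 of 15 alternatives. mt-Tq had 9.80, 7.63 and 28.4 TMM-scaled CPM with GSK-J4, 3.33, 2.29 and 4.66 in the CKO and 5.49, 4.84 and 4.75 in the control, and did not pass the test (edgeR adjusted p = 0.107). mt-Ta (alanine) had 5.56, 9.62 and 2.94 with GSK-J4, 0.718, 0.663 and 1.16 in the CKO and 1.17, 1.54 and 0.935 in the control, also without overlap and without a call (edgeR adjusted p = 0.158). DESeq2 called both mt-Tq and mt-Ta. mt-Tc (cysteine) rested on 3, 5 and 9 counts with GSK-J4 and 0, 3 and 0 in the CKO.

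**Figure D3:**
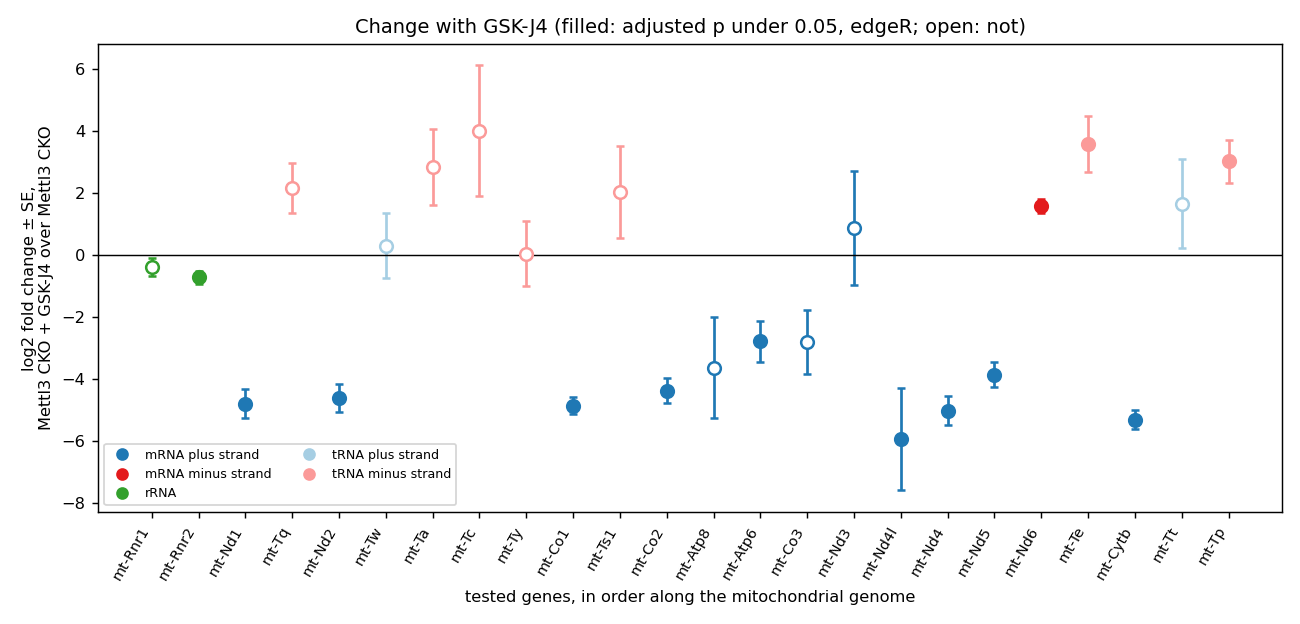
Log2 fold change of each tested member, Mettl3 CKO with GSK-J4 against Mettl3 CKO, with its SE, in the order of the genes along the mitochondrial genome, coloured by class and strand and filled where called. The 6 abundant plus-strand mRNAs lie between -5.33 and -3.88, the rRNAs at -0.74 and -0.39, and mt-Nd6, mt-Te and mt-Tp at 1.57, 3.56 and 3.01.

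Counting libraries in place of a test, 6 of the tested members had all 3 GSK-J4 libraries above all 3 Mettl3 CKO libraries, with a background of 10.9% of genes, and 12 had all 3 below, with a background of 22.3%. Against the Mettl3 control, 12 members were called, where 11.4% of genes were called. There were 2 higher, with a background of 3.16%, and 10 lower, with a background of 8.25%. mt-Nd6 had a log2 fold change of 1.35 ± 0.21 (SE; edgeR adjusted p = 0.00210) and mt-Tp of 3.80 ± 0.72 (SE; edgeR adjusted p = 0.00655). mt-Rnr2 had -1.09 ± 0.20 (SE; edgeR adjusted p = 0.00556). mt-Te missed the threshold here, at 2.91 ± 0.87 (SE; edgeR adjusted p = 0.0540). The 12 plus-strand mRNAs had a median of -4.65. In this comparison 6 members lay wholly above the control, with a background of 10.2%, and 12 wholly below, with a background of 23.1%. Both comparisons use the same 3 GSK-J4 libraries.

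The make-up of the mRNA that was left also differed. Among the summed counts of the 6 abundant plus-strand mRNAs, mt-Nd5 took 34.7 ± 5.01% with GSK-J4, 21.1 ± 1.60% in the Mettl3 CKO and 18.7 ± 2.84% in the Mettl3 control (SD, n = 3 each). The 3 GSK-J4 libraries, at 29.0 to 38.3%, lay above all of the 15 others, at 10.9 to 22.8%. mt-Cytb took 11.99 ± 3.35% with GSK-J4, 18.4 ± 0.150% in the CKO and 19.3 ± 1.45% in the control. Its GSK-J4 libraries, at 9.35 to 15.8%, lay below the 15 others, at 17.3 to 22.1%. mt-Co1 took 26.5 ± 6.58% with GSK-J4 and 28.9 ± 1.28% in the CKO, and mt-Nd2 7.51 ± 2.98% and 7.50 ± 0.617%, in each case with less difference than the spread of the GSK-J4 libraries. mt-Nd1 and mt-Nd4 overlapped the range of the other 15 libraries. The 3 GSK-J4 libraries held 16934 counts of these mRNAs in all, against 1829886 in the CKO and 1951305 in the control. They varied more among themselves than those of any other group of the line, and the cause was not tested.

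**Figure D4:**
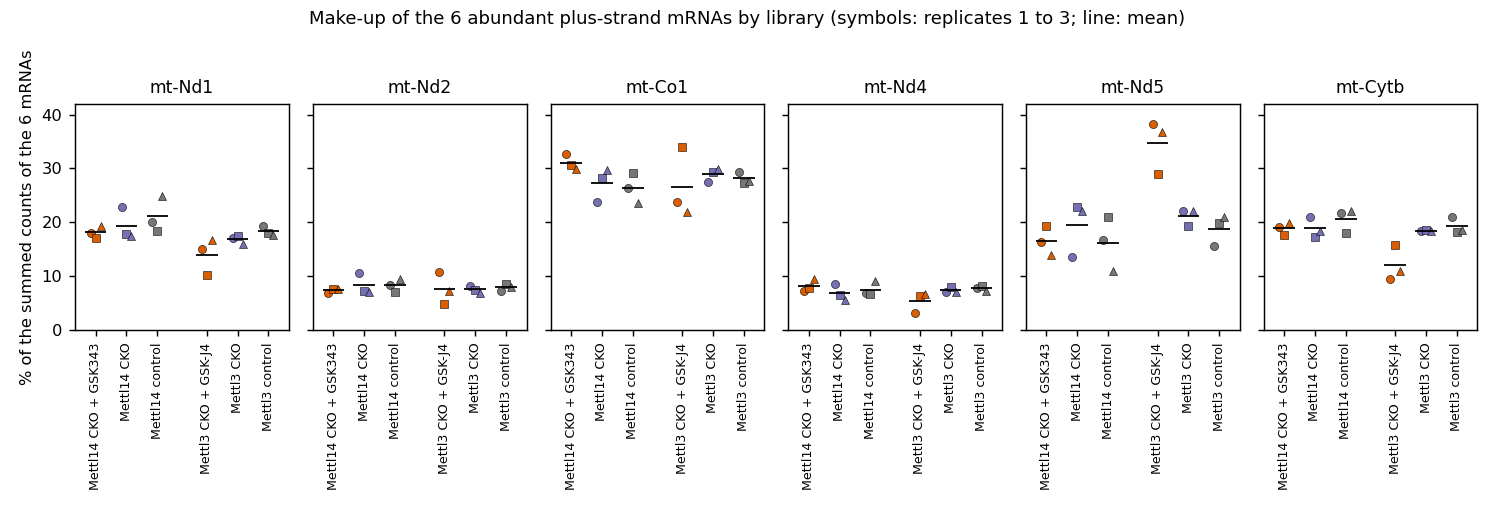
Share of each of 6 plus-strand mRNAs in their summed counts (percent), with a panel for each. Points are the 18 libraries, symbols are replicates and lines are group means. mt-Nd5 takes 29.0 to 38.3% in the GSK-J4 libraries, above the 10.9 to 22.8% of the 15 others, and mt-Cytb 9.35 to 15.8%, below their 17.3 to 22.1%.

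Other classes of RNA also moved with GSK-J4, and were picked after their values were seen. The 70 replication-dependent histone genes summed to 1492 to 1643 CPM with GSK-J4 and to 398 to 683 CPM in the other 15 libraries. The 2855 annotated antisense genes took 0.319 to 0.342% of counts with GSK-J4 and 0.0925 to 0.122% elsewhere. Small nucleolar RNAs took 0.0193 to 0.0259% with GSK-J4 and 0.00125 to 0.0104% elsewhere. Small nuclear RNAs took 0.0178 to 0.0331% with GSK-J4 and 0.00199 to 0.0265% elsewhere, and Mettl14 CKO replicate 3, at 0.0265%, lay among the GSK-J4 libraries. Nuclear genes that overlap ribosomal RNA sequence, in contrast, took 0.603% with GSK-J4 and 0.643% in the CKO. The part of these shifts in the values of the mitochondrial genes was not tested.

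The inhibitor effects of the lines were then set against each other in a fit of all 18 libraries, as the GSK-J4 effect in the Mettl3 CKO minus the GSK343 effect in the Mettl14 CKO. Of 23 members tested, 11 were called, where 10.2% of 16326 genes were called. There were 2 higher, mt-Nd6 and mt-Te, with a background of 1.92%, and 9 lower, all of them plus-strand mRNAs, with a background of 8.30%. mt-Co1 had 192, 195 and 348 TMM-scaled CPM with GSK-J4 against 6578, 7920 and 6969 in its CKO, and 8767, 9605 and 8519 with GSK343 against 7390, 5820 and 3976 in its CKO. The GSK-J4 libraries lay below their CKO and the GSK343 libraries above theirs, and the difference of the effects was -5.54 ± 0.36 on the log2 scale (SE; edgeR adjusted p = 3.53e-09). mt-Nd6 had 149, 255 and 227 TMM-scaled CPM with GSK343 and 280, 172 and 682 in the Mettl14 CKO, which overlapped, and its difference of effects was 2.37 ± 0.48 (SE; edgeR adjusted p = 0.00211). Neither rRNA was called, with edgeR adjusted p of 0.931 and 1.00. Inhibitor and line were not crossed, so they cannot be told apart in these differences.

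**Figure D5:**
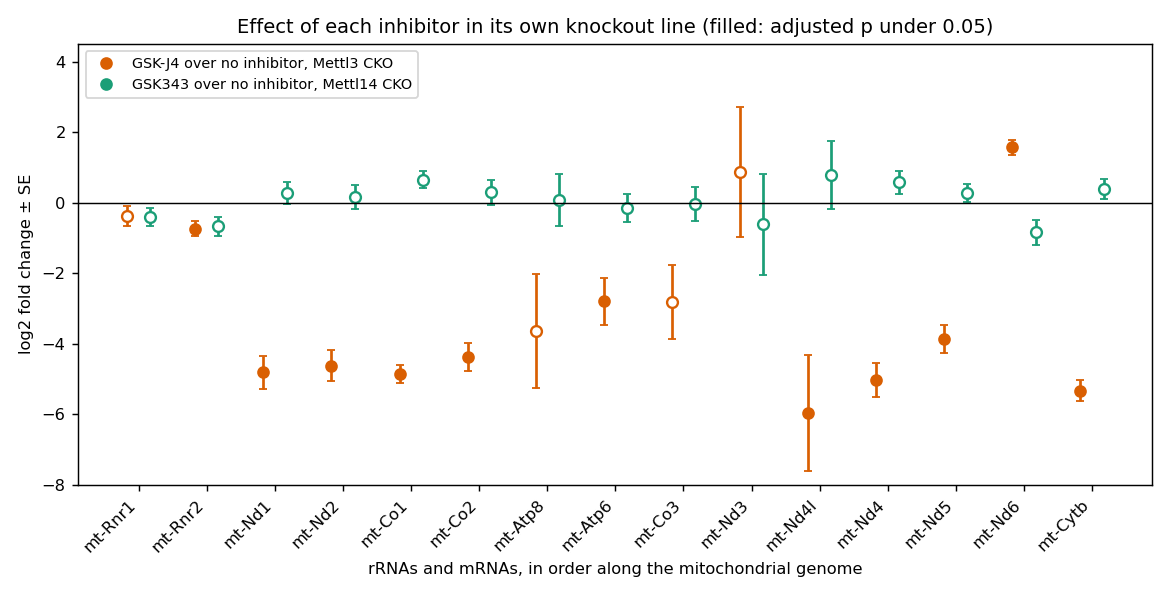
Log2 fold change of the 13 mRNAs and 2 rRNAs with its SE, in genome order, for GSK-J4 in the Mettl3 CKO and for GSK343 in the Mettl14 CKO, filled where called. The plus-strand mRNAs have a median of -4.50 with GSK-J4 and of 0.27 with GSK343.

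GSK343 in the Mettl14 CKO changed no mitochondrial gene past the threshold. edgeR called 0 of 20 members tested, where 0.0288% of 13882 genes were called, and 3 members had an unadjusted p under 0.05. limma voom and DESeq2 also called 0 members, where they called 19 and 56 of all 13882 genes. mt-Co1 was the 1 member with all GSK343 libraries above all CKO libraries, with a background of 4.56%, and had a log2 fold change of 0.65 ± 0.24 (SE; edgeR adjusted p = 0.691). The 12 plus-strand mRNAs had a median of 0.27, and took 2.81, 3.21 and 2.85% of counts with GSK343 and 2.94, 2.07 and 1.23% in the Mettl14 CKO. The CKO libraries thus spread more than the groups differed. mt-Nd6 had a log2 fold change of -0.84 ± 0.35 (SE; edgeR adjusted p = 0.806) and mt-Rnr2 of -0.68 ± 0.28 (SE; edgeR adjusted p = 0.752). Without Mettl14 CKO replicate 3 the mt-Nd6 value was -0.09 and the mt-Rnr2 value -0.27.

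Against the Mettl14 control, GSK343 libraries also had 0 of 20 members called, where 0.166% of genes were called, and 3 had an unadjusted p under 0.05. mt-Tp had 5.16, 9.37 and 34.8 TMM-scaled CPM with GSK343, 6.73, 3.00 and 10.9 in the CKO and 1.62, 1.90 and 2.19 in the control. Its GSK343 libraries all lay above the controls, and the log2 fold change was 2.94 ± 0.77 (SE; edgeR adjusted p = 0.249), with a call by DESeq2. The highest value was from GSK343 replicate 3, the shallowest library, with a total of 721853 counts. With a single library left out the log2 fold change was as low as 1.92. mt-Co1 and the threonine tRNA mt-Tt were the other members with no overlap upward, with a background of 4.65%.

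Between the Mettl14 CKO and its control, edgeR called 0 of 20 members, as it called 0.0% of all genes, and 4 members had an unadjusted p under 0.05. Over all genes 208 had an unadjusted p under 0.05, and neither limma voom nor DESeq2 called any. The 12 plus-strand mRNAs had a median log2 fold change of -0.09. It was -0.65 without CKO replicate 1 and 0.19 without CKO replicate 3, so its sign rests on single libraries. mt-Rnr2 had 11357, 11439 and 22100 TMM-scaled CPM in the CKO and 6229, 9248 and 6064 in the control. The CKO libraries all lay above the control, with a log2 fold change of 1.06 ± 0.28 (SE; edgeR adjusted p = 1.00). mt-Rnr1 had 3821, 3614 and 7304 in the CKO and 2622, 3287 and 2393 in the control, with 0.83 ± 0.26 (SE; edgeR adjusted p = 1.00). With mt-Tp these were the 3 members with no overlap upward, with a background of 3.28%. In both rRNAs, and in mt-Nd6 at 280, 172 and 682 TMM-scaled CPM in the CKO against 180, 193 and 179 in the control, the highest library was CKO replicate 3. Without that library mt-Nd6 had a log2 fold change of 0.27, against 1.02 ± 0.35 with it (SE; edgeR adjusted p = 1.00), and mt-Rnr1 and mt-Rnr2 had 0.41 and 0.65.

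Between the Mettl3 CKO and its control, edgeR called 0 of 24 members, as it called 0.0% of all genes, and 0 members had an unadjusted p under 0.05. Over all genes 315 had an unadjusted p under 0.05, and DESeq2 called 5 and limma voom 6. The 12 plus-strand mRNAs had log2 fold changes of -0.50 to 0.09 with a median of -0.15, and mt-Nd6 had -0.22 ± 0.21 (SE; edgeR adjusted p = 1.00). The rRNAs had -0.34 and -0.36. mt-Tp lay above the control in all 3 CKO libraries, with a background of 6.48%, and mt-Tq below in all 3, with a background of 6.61%. The difference of the knockout effects, Mettl14 CKO effect minus Mettl3 CKO effect, had 0 of 23 members called by edgeR, as it had 0.0% of all genes called, and 3 members had an unadjusted p under 0.05. Over all genes 366 had an unadjusted p under 0.05, DESeq2 called 17 and limma voom 0. mt-Nd6, mt-Rnr1 and mt-Rnr2 were 1.21, 1.13 and 1.39 higher on the log2 scale in this difference (edgeR adjusted p = 1.00 each).

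Few of the nuclear genes that serve the same complexes were called under GSK-J4. Of 75 nuclear-encoded respiratory chain and ATP synthase genes, 1 was called higher and 1 lower against the Mettl3 CKO, where 13% of all genes were called, with log2 fold changes of -1.21 to 1.28 and a median of 0.09, where the median of all genes was -0.06. The complex I gene Ndufb6 had 58.1 ± 5.32 TMM-scaled CPM with GSK-J4 and 23.9 ± 5.98 in the CKO (SD, n = 3 each), with a log2 fold change of 1.28 ± 0.33 (SE; edgeR adjusted p = 0.0257). Atp5a1, the alpha subunit of ATP synthase, had 371 ± 58.1 with GSK-J4 and 558 ± 54.7 in the CKO, with -0.59 ± 0.17 (SE; edgeR adjusted p = 0.0448). By complex, 1 of 36 genes was called for complex I and 1 of 15 for ATP synthase. None was called of 4 for complex II, which has no mitochondrially encoded subunit, of 9 for complex III and of 11 for complex IV. Against the Mettl3 control, 5 of the 75 were called lower (Ndufb10, Ndufs8, Uqcrc1, Atp5h and Atp5a1) and 0 higher, where 8.25% of all genes were called lower, with a median of -0.27.

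Of the nuclear factors that make and handle mitochondrial RNA, none of the 10 genes of transcription was called against the Mettl3 CKO, with a median log2 fold change of 0.19. Of 22 genes of RNA processing, polyadenylation and decay, 2 rose and 2 fell. Trmt10c, a subunit of the enzyme that cuts tRNA 5′ ends from the precursor, had 120 ± 59.0 TMM-scaled CPM with GSK-J4 and 32.0 ± 2.87 in the CKO (SD, n = 3 each), a log2 fold change of 1.90 ± 0.39 (SE; edgeR adjusted p = 0.00885). Pde12, which removes poly(A) tails in mitochondria, had 78.1 ± 20.7 with GSK-J4 and 35.2 ± 3.32 in the CKO, a log2 fold change of 1.15 ± 0.30 (SE; edgeR adjusted p = 0.0306). Lrpprc, which binds mitochondrial mRNAs and is known to protect them and to promote their polyadenylation, had 58.4 ± 19.5 with GSK-J4 and 117 ± 9.20 in the CKO. Its log2 fold change was -0.997 ± 0.26 (SE; edgeR adjusted p = 0.0304). Rexo2, which degrades very short RNAs, had 34.3 ± 23.8 with GSK-J4 and 111 ± 20.6 in the CKO, a log2 fold change of -1.69 ± 0.42 (SE; edgeR adjusted p = 0.0224). With 13% of all genes called, 4 of 22 was near the background.

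The calls of the other lists against the Mettl3 CKO are to be read against the same background of 13% of all genes called. Of 19 genes of rRNA and tRNA modification, Nsun2 and Nsun3, which methylate cytosine in tRNAs, were called higher, with log2 fold changes of 0.89 and 2.49. Of 13 genes of mitochondrial DNA replication, the ligase gene Lig3 was called lower, at -1.66, and the list had a median of 0.56. Of 12 genes of the mitochondrial unfolded protein response, 3 were called. The chaperone gene Hspa9 and the transcription factor gene Atf5 were called higher, at 0.77 and 0.81. The chaperone gene Trap1 was called lower, at -1.14. None of the 9 biogenesis regulators was called, with a median of 0.26. No gene of any of these lists was called by edgeR in the comparisons within the Mettl14 line or between the Mettl3 CKO and its control.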

How the data were processed

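Libraries were made from bead-purified poly(A) RNA with a SMARTer stranded kit, per the labels' protocols. The submitters' processing notes name CASAVA, Trimmomatic 0.38, HISAT2 2.1.0, HTSeq and mm10. The authors deposited unnormalized counts for each gene. Annotation release and strand setting: not given in the sources used here. Without their version, 54409 of 54446 identifiers matched GENCODE M21, which gave symbols, coordinates and transcripts.

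Each line's 9 libraries were fitted with R 4.3.3 and edgeR 4.0.16 (quasi-likelihood test, TMM, filterByExpr, Benjamini-Hochberg adjustment over all genes tested), and differences of effects on all 18 libraries. Calls have an adjusted p under 0.05. The biological coefficient of variation was 0.394 (Mettl14 line), 0.843 (Mettl3 line) and 0.664 (all). The tests were tried on simulated data. Shares, levels per kilobase and marker sums use plain CPM, and single genes TMM-scaled CPM. Copies of at least 100 bases and 90% identity were sought with blastn 2.17.0 among annotated nuclear transcripts. Alternatives were no low-count filter, RLE size factors, DESeq2 1.42.0, a block for the replicate number, library size without the mt- genes, the 2 groups alone, all 18 libraries and each library left out. Library totals as the scale, limma 3.58.1 voom with quality weights and omission of the 2 shallowest libraries were added after the data were seen. Members, lists and tests were chosen with earlier results of these data known. All 37 members are accounted for, and nuclear list genes are named where called. Intervals and floors cover counting error only. Python 3.11.15 with matplotlib 3.10.9 drew the figures.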

Additional observations from a re-analysis of the deposited data

Results flagged for a closer look

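For 11 of the mitochondrial genes the effect of GSK-J4 in the Mettl3 CKO differed from that of GSK343 in the Mettl14 CKO by a test of the difference itself (edgeR quasi-likelihood test on all 18 libraries, Benjamini-Hochberg adjusted p under 0.05). These were 11 of 23 members tested, where 10.2% of all 16326 genes tested were called, 1.92% higher and 8.30% lower. The difference, on the log2 scale, was -5.74 for mt-Cytb, -5.54 for mt-Co1 and -4.69 for mt-Co2. Among complex I mRNAs it was -5.63 for mt-Nd4, -5.10 for mt-Nd1, -4.81 for mt-Nd2, -4.18 for mt-Nd5 and -6.73 for mt-Nd4l, which had 0, 0 and 1 counts with GSK-J4. It was -2.75 for mt-Atp6. On the minus strand it was 2.37 for mt-Nd6 and 4.46 for mt-Te. Each inhibitor was used in 1 line only, so inhibitor and line cannot be told apart. Of the 20 alternatives, 20 kept the call for mt-Nd1, mt-Nd2, mt-Nd4, mt-Nd5, mt-Nd6, mt-Co1 and mt-Cytb, 19 for mt-Co2, 17 for mt-Atp6, 10 for mt-Nd4l and 6 for mt-Te.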

How the results depend on the processing

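Of 54 single-gene values followed through the alternatives, 36 were called and 0 of these changed sign. Over 872 such values under an alternative, 781 kept their direction and side of the threshold, 71 lost a call and 20 gained one. Without the low-count filter 1 member was called in the Mettl14 CKO against its control (mt-Rnr2), in GSK343 against the control (mt-Tp) and in the difference of knockout effects (mt-Rnr2), where the count was otherwise 0. Those fits called 15 of 25672, 63 of 25672 and 13 of 34362 genes in all. DESeq2 called 1 (mt-Tp) in GSK343 against the control, where it called 70 of 13882 genes. In GSK-J4 against the Mettl3 CKO, leaving out 1 library gave 8 to 14 members against 13, and 8 without any 1 of the CKO libraries. Calls over all genes there were 1032 to 1113 without a CKO library and 2819 to 3061 without a GSK-J4 library, against 2186 as fitted. With the replicate number as a block 8 members were called there, where 1407 of 16782 genes were called. The block kept the count of members within 1.5 times in every other comparison. Deviations of same-numbered libraries correlated between -0.137 and 0.124 in the Mettl14 line and between -0.0347 and 0.0577 in the Mettl3 line. A library correlated best with its own number in 7 of 18 cases in the Mettl14 line and 4 of 18 in the Mettl3 line. These values showed no pairing by number, but so few libraries cannot exclude it. limma voom called 7 members in place of 11 in the difference of inhibitor effects, and 856 of 16326 genes in place of 1668. With rRNAs in the total, mt-Nd6 took 7.52% with GSK-J4 and 0.561% in the Mettl3 CKO, against 38.3% and 0.768% of mRNA counts. The causes were not tested. Depth limits the tRNAs, whose summed share has a Wilson interval with a half-width of up to 33.6% of its value.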
